A study of Sus scrofa with 15 samples.

Results

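A set of 9 genes that mark T and B lymphocytes was followed in the backfat of Iberian pigs given olive by-products. They were taken by name: CD3E and CD3G (chains of the CD3 complex), CD2 and CD5 (T cell surface receptors), CD4 and CD8A (T cell coreceptors), CD79B and MS4A1 (B cell surface proteins) and PTPRC (the pan-leukocyte phosphatase CD45). Of these 9 genes, 8 could be matched to a row among the 30477 genes counted, 6 passed the filter on low counts that left 14918 tested genes, and CD3G could not be matched and has no value here. CD79B and MS4A1 are measured in every library but failed the filter.

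T lymphocytes recognise peptides through a T cell receptor whose signal is carried by the CD3 chains. CD4 and CD8 bind MHC class II and class I molecules, and CD2 and CD5 adjust adhesion and the strength of the signal. B lymphocytes signal through a receptor that contains CD79B and carry MS4A1 (CD20), while CD45, encoded by PTPRC, removes an inhibitory phosphate from the kinases of both receptors and is made by nearly all leukocytes. In subcutaneous fat, lymphocytes are a minor population beside adipocytes, endothelium and macrophages.

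Samples were backfat biopsies of growing Iberian pigs, 5 pigs and 5 RNA-seq libraries per diet. C pigs received a control compound feed, DOP pigs a compound feed made with dry olive pulp, and WCOC pigs a compound feed of their own together with free access to a silage of wet crude olive cake. Breed, tissue and growing period were common to the diets. Per the study's methods each diet was housed in a single pen, and only WCOC pigs fed without restriction, on the silage, so diet, pen and energy intake cannot be told apart. Biopsies were chosen for RNA amount and quality.

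Libraries held 22373715 to 34745218 read pairs counted on genes. Of the adipocyte list, ADIPOQ (adiponectin) averaged 5011 CPM (counts scaled to a common library size, with TMM factors) over the 15 libraries, and all 11 matched adipocyte genes were among the tested genes. The summed skeletal muscle list ran from 21.4 CPM (WCOC pig 3) to 59448 CPM (DOP pig 5), with DOP pigs 2 and 4 next, and HBB (beta globin) reached 15329 CPM in DOP pig 2 and 3277 CPM in WCOC pig 5 against 901 to 2792 CPM elsewhere. The sample labels name no flow cell. By run identifiers in the deposited names, read here as flow cells, C pigs 1 to 4 and all WCOC pigs were on flow cell A. C pig 5 and all DOP pigs were on flow cell B, so for WCOC vs. DOP flow cell and diet cannot be told apart. Read the same way, C pigs 1 to 4 and WCOC pigs 1 to 3 had lane 2 of flow cell A, and WCOC pigs 4 and 5 lane 8. Differences below are log2FC values of an edgeR quasi-likelihood fit over all 15 libraries, with p adjusted over all tested genes.

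Sequence upstream of the genes was read from Sscrofa11.1 at the starts given by the RefSeq annotation. The pair of members whose levels ran most alike (CD3E and CD5), the member that ran apart (CD4) and a B cell member (CD79B) are shown as examples. The grouping of the genes below rests on their levels and not on these windows. Each line is the 250 bases before the annotated start, 5′ to 3′ on the gene's own strand. Capitals mark a match, on either strand, to a motif named below.
CD3E: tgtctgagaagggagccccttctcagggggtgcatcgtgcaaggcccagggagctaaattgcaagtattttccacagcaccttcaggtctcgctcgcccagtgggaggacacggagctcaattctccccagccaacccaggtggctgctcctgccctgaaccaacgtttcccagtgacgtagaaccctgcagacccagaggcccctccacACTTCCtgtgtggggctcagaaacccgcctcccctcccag
CD5: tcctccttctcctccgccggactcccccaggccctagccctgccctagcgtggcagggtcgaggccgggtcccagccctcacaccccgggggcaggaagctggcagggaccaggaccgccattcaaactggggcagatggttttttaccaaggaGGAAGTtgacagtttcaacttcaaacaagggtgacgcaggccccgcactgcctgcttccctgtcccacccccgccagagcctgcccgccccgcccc
CD4: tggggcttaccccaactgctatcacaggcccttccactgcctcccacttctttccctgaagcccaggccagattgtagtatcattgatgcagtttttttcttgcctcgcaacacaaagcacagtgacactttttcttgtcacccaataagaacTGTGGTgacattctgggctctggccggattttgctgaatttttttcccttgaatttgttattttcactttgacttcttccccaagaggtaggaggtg
CD79B: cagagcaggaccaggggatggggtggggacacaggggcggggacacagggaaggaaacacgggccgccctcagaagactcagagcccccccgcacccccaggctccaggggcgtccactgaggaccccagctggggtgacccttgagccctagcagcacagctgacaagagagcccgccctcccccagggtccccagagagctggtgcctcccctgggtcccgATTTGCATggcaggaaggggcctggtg
These windows are chr9:45619480-45619729 (plus strand), chr2:10673480-10673729 (minus strand), chr5:63918548-63918797 (minus strand) and chr12:15052716-15052965 (plus strand). The capitals in CD3E and CD5 are the ETS core GGAAGT, on the opposite strand in CD3E where it reads ACTTCC. The same letters are in the window of PTPRC and in 17.4% of 19556 windows of the same length over the annotation. The capitals in CD4 are the RUNX letters TGTGGT (13.96% of windows), and those in CD79B are the octamer ATGCAAAT, read here as ATTTGCAT, which 1.24% of windows hold. The windows of CD2, CD8A and MS4A1 hold none of these 3 motifs, and the TATA letters TATAAA (9.77% of windows) are in none of the windows of the 8 matched members. A match describes letters only and no binding was measured.

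CD3E (ENSSSCG00000040140) lies on chromosome 9 from 45619730 to 45633972, and CD5 (ENSSSCG00000013115) on chromosome 2 from 10648973 to 10673479. CD2 (ENSSSCG00000006736) lies on chromosome 4 from 103963802 to 103976971, CD8A (ENSSSCG00000008217) on chromosome 3 from 57999228 to 58029768 and CD4 (ENSSSCG00000000687) on chromosome 5 from 63892129 to 63918547. CD79B (ENSSSCG00000017283) is on chromosome 12 from 15052966 to 15056441, MS4A1 (ENSSSCG00000021812) on chromosome 2 from 11216238 to 11229060 and PTPRC (ENSSSCG00000010908) on chromosome 10 from 21482984 to 21601627. MS4A1 is overlapped by MS4A4A on the other strand, so its counts would be uncertain if the counting did not use strand, a setting not given in the sources used here. The other 7 matched members overlap no annotated gene.

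All 8 matched members were detected in all 15 libraries, at low levels. Per kilobase of the RefSeq transcript, C pigs had 6.19 ± 3.20 CPM of PTPRC, 3.04 ± 0.437 of CD4, 2.56 ± 1.15 of CD2, 1.76 ± 0.596 of CD3E, 0.980 ± 0.406 of CD8A, 0.523 ± 0.209 of CD5, 0.200 ± 0.0800 of CD79B and 0.111 ± 0.0360 of MS4A1 (SD, n = 5). In that order the first 4 genes each lay within 1 SD of the next, whereas the steps below CD3E exceeded either SD. B cell genes were thus the lowest of the members per length in C. The RefSeq transcript may differ from the gene model that was counted.

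CD3E, the signalling chain that every mature T cell receptor needs, stood at 1.91, 1.75, 1.56, 2.22 and 3.41 CPM in C pigs 1 to 5, 2.53, 5.17, 0.957, 1.28 and 1.15 CPM in DOP pigs 1 to 5, and 1.57, 1.61, 2.48, 0.731 and 4.84 CPM in WCOC pigs 1 to 5. The highest library was DOP pig 2 and the lowest WCOC pig 4, a 7.08-fold range, and all diets overlapped. Means were 2.17 ± 0.735 CPM in C, 2.22 ± 1.76 CPM in DOP and 2.25 ± 1.58 CPM in WCOC (SD, n = 5). The log2FC was 0.02 (95% interval −1.06 to 1.11, adjusted p = 0.988) for DOP vs. C, 0.05 (95% interval −1.03 to 1.13, adjusted p = 0.966) for WCOC vs. C and 0.03 (95% interval −1.05 to 1.11, adjusted p = 0.980) for WCOC vs. DOP. The means of the diets were nearly equal, yet each interval still spans a change of about 1 log2 unit either way.

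CD2, an adhesion receptor of T and NK cells, stood at 2.89, 1.71, 1.37, 2.73 and 4.37 CPM in C pigs 1 to 5, 2.93, 5.96, 1.33, 1.05 and 1.95 CPM in DOP pigs 1 to 5, and 1.47, 1.57, 2.32, 1.11 and 3.42 CPM in WCOC pigs 1 to 5. It was again highest in DOP pig 2, followed by C pig 5 and WCOC pig 5. CD5, which dampens T cell receptor signals, stood at 1.18, 0.854, 0.605, 0.935 and 1.72 CPM in C pigs 1 to 5, 1.69, 3.32, 0.432, 0.601 and 0.628 CPM in DOP pigs 1 to 5, and 0.785, 1.20, 1.34, 0.381 and 2.15 CPM in WCOC pigs 1 to 5. The same 3 pigs headed CD5, and none of the diets separated. The log2FC of CD2 was 0.01 (95% interval −0.97 to 1.00, adjusted p = 0.992) for DOP vs. C and −0.40 (95% interval −1.39 to 0.59, adjusted p = 0.619) for WCOC vs. C, that of CD5 0.32 (95% interval −0.85 to 1.505, adjusted p = 0.811) and 0.15 (95% interval −1.03 to 1.33, adjusted p = 0.894). WCOC vs. DOP gave −0.41 (95% interval −1.40 to 0.57, adjusted p = 0.611) for CD2 and −0.18 (95% interval −1.34 to 0.99, adjusted p = 0.868) for CD5.

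CD8A, a chain of the CD8 coreceptor, stood at 2.26, 2.26, 0.733, 2.18 and 3.18 CPM in C pigs 1 to 5. It stood at 2.69, 3.51, 0.741, 0.864 and 1.19 CPM in DOP pigs 1 to 5, and 1.34, 1.65, 3.13, 0.699 and 2.77 CPM in WCOC pigs 1 to 5. Libraries of each diet fell both above 2 CPM and below 1 CPM, so the diets overlapped widely. Its log2FC was −0.24 (95% interval −1.31 to 0.82, adjusted p = 0.847) for DOP vs. C, −0.14 (95% interval −1.20 to 0.91, adjusted p = 0.885) for WCOC vs. C and 0.10 (95% interval −0.96 to 1.16, adjusted p = 0.921) for WCOC vs. DOP. The ratio of CD8A to CD3E counts stayed between 0.475 and 1.29 in all 15 libraries. CD8A therefore kept near CD3E from pig to pig, C pig 3 having the lowest ratio.

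CD4, the coreceptor of helper T cells, behaved differently from the other T cell members. It stood at 9.91, 8.42, 7.995, 6.58 and 8.22 CPM in C pigs 1 to 5, 19.7, 9.74, 0.617, 23.7 and 16.2 CPM in DOP pigs 1 to 5, and 8.28, 0.973, 10.1, 0.381 and 1.89 CPM in WCOC pigs 1 to 5. DOP pig 3 and WCOC pigs 2, 4 and 5 lay between 0.381 and 1.89 CPM, and the other 11 libraries between 6.58 and 23.7 CPM. These 4 low libraries came from both flow cells, and all C libraries were among the other 11. C pigs were close together, with a coefficient of variation of 14.4% that was the lowest of the 8 members in C, against 64.8% in DOP and 104% in WCOC.

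The ratio of CD4 to CD3E counts was 0.392 to 0.651 in the 4 low libraries and 1.88 to 18.3 in the other 11. The 4 libraries were named for low CD4, so this ratio is no independent support for the split. WCOC pig 5, which had the highest CD3E level of its diet, had the lowest ratio, and DOP pig 4 the highest. Means of CD4 were 8.22 ± 1.18 CPM in C, 13.98 ± 9.06 CPM in DOP and 4.32 ± 4.51 CPM in WCOC (SD, n = 5). Its log2FC was 0.76 (95% interval −0.89 to 2.42, adjusted p = 0.663) for DOP vs. C, −0.93 (95% interval −2.61 to 0.75, adjusted p = 0.477) for WCOC vs. C and −1.69 (95% interval −3.39 to 0.002, adjusted p = 0.178) for WCOC vs. DOP. The last was the largest difference among the 6 tested members in size. Its unadjusted p was 0.0502 in the edgeR fit with the filter, 0.0425 in edgeR without the filter (adjusted p = 0.220) and 0.0409 in DESeq2 (adjusted p = 0.149), and it was called in none of them. Leaving out 1 library at a time moved WCOC vs. DOP between −2.27 and −1.38 and WCOC vs. C between −1.51 and −0.62, with a call in none of the 15 fits, and limma-voom gave −1.82 for WCOC vs. C (adjusted p = 0.311).

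**Figure D1:**
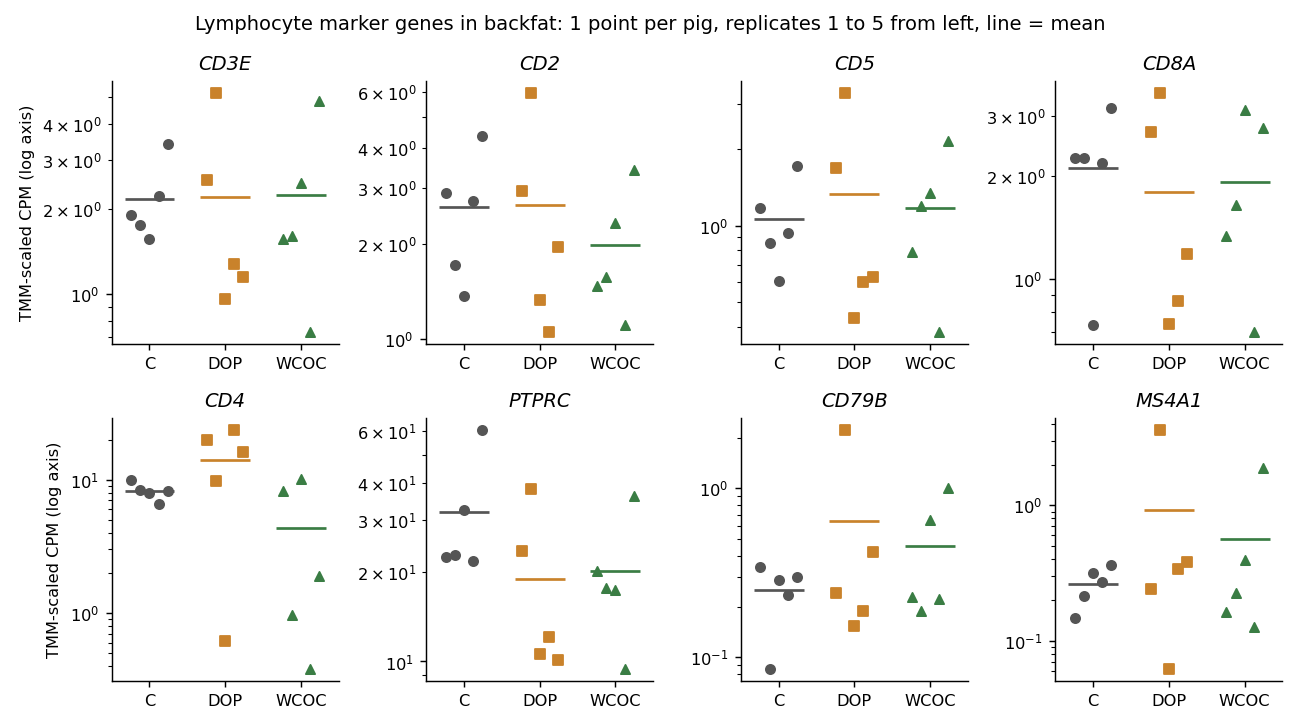
Level of the 8 matched members in each library (y axis, TMM-scaled CPM, logarithmic and scaled per gene) by diet (x axis, C, DOP and WCOC, 5 pigs each), with points for pigs and lines for means. CD3E, CD2, CD5 and CD8A are highest in DOP pig 2 within DOP, CD3E, CD2 and CD5 in WCOC pig 5 within WCOC, CD4 splits into a low set of 4 libraries and 11 others, and CD79B and MS4A1 are highest in DOP pig 2 and WCOC pig 5.

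PTPRC, which marks leukocytes of every kind, stood at 22.6, 22.9, 32.4, 21.9 and 60.7 CPM in C pigs 1 to 5, 23.6, 38.3, 10.6, 12.1 and 10.1 CPM in DOP pigs 1 to 5, and 20.2, 17.7, 17.4, 9.43 and 36.1 CPM in WCOC pigs 1 to 5. C pig 5 was the highest and WCOC pig 4 the lowest library. DOP pigs 3, 4 and 5 and 4 of the 5 WCOC pigs lay below all C pigs, but DOP pigs 1 and 2 and WCOC pig 5 lay above the lowest C pig. Means were 32.1 ± 16.6 CPM in C, 18.9 ± 12.2 CPM in DOP and 20.2 ± 9.79 CPM in WCOC (SD, n = 5). The log2FC was −0.76 (95% interval −1.68 to 0.15, adjusted p = 0.378) for DOP vs. C, −0.67 (95% interval −1.58 to 0.24, adjusted p = 0.337) for WCOC vs. C and 0.09 (95% interval −0.82 to 1.00, adjusted p = 0.915) for WCOC vs. DOP. In bulk tissue fewer cells of a type and less RNA per cell cannot be told apart.

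Leaving out 1 library at a time moved the log2FC of PTPRC between −1.20 and −0.40 for DOP vs. C and between −0.99 and −0.31 for WCOC vs. C, below 0 in all 15 fits. Without DOP pig 2 and WCOC pig 5, which were left out together after their B cell counts had been seen, the log2FC was −1.19 for DOP vs. C (adjusted p = 0.184) and −0.99 for WCOC vs. C (adjusted p = 0.113). On flow cell A alone (4 C and 5 WCOC pigs) WCOC vs. C was −0.32 (adjusted p = 0.555), beside 0.27 for CD3E, −0.14 for CD2, 0.39 for CD5, −0.94 for CD4 and 0.0455 for CD8A. With flow cell as a covariate DOP vs. C was −1.68 (adjusted p = 0.288), a value that rests on C pig 5, the only C pig on flow cell B and the highest PTPRC library. PTPRC passed the threshold in none of these fits.

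The B cell members were low, with few reads behind most values, and are given as counts. MS4A1 (CD20) had 3, 5, 10, 7 and 11 counts in C pigs 1 to 5, 6, 96, 2, 9 and 11 in DOP pigs and 5, 6, 12, 4 and 64 in WCOC pigs. DOP pig 2 and WCOC pig 5 stood far above the remaining 13 libraries, which had 2 to 12 counts. Exact Poisson 95% intervals, which cover counting error only, were 77.8 to 117 counts for DOP pig 2 and 49.3 to 81.7 for WCOC pig 5, against 6.20 to 20.96 for the next library, WCOC pig 3. CD79B, the partner chain of the B cell receptor, had 7, 2, 9, 6 and 9 counts in C, 6, 59, 5, 5 and 12 in DOP and 7, 5, 20, 7 and 34 in WCOC. The same pigs, DOP 2 and WCOC 5, were highest for both B cell members.

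The mean of MS4A1 was 0.263 ± 0.0856 CPM in C, 0.929 ± 1.51 CPM in DOP and 0.559 ± 0.750 CPM in WCOC (SD, n = 5), with an SD above the mean in both olive diets. In an edgeR fit without the filter (22920 genes) MS4A1 had a log2FC of 1.76 for DOP vs. C (adjusted p = 0.437) and 1.07 for WCOC vs. C (adjusted p = 0.536), and CD79B 1.34 (adjusted p = 0.456) and 0.88 (adjusted p = 0.531). For WCOC vs. DOP the values were −0.69 (adjusted p = 0.700) and −0.45 (adjusted p = 0.761). Neither gene separated the diets. CD79A, the other chain of the pair, is listed at 0 in all 15 libraries.

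No member was called in any comparison by edgeR's quasi-likelihood test, where a call needs a Benjamini-Hochberg adjusted p under 0.05 over all genes together with a log2FC whose size is 0.58 or more. The count was 0 of 6 for DOP vs. C, where 0.764% of all tested genes were called, 0 of 6 for WCOC vs. C (6.25%) and 0 of 6 for WCOC vs. DOP (7.76%). Genes called higher were 0.215%, 2.33% and 2.65% of all tested genes in these comparisons and genes called lower 0.55%, 3.93% and 5.11%, and the members added 0 to either. At an unadjusted p under 0.05 the count was also 0 of 6 in each, against 17.6%, 26.4% and 28.1% of all genes. The values of the diets overlapped for all 6 members in every comparison, whereas 3.47%, 7.62% and 8.9% of all genes did not overlap. The calls of DESeq2 and limma-voom were 0 as well, with 1 member each at an unadjusted p under 0.05 (CD4 in WCOC vs. DOP for DESeq2, PTPRC in DOP vs. C for limma-voom).

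The median log2FC of the 6 members was 0.02 for DOP vs. C, −0.27 for WCOC vs. C and −0.08 for WCOC vs. DOP, beside 0.01, 0.004 and 0.001 over all tested genes. DOP vs. C and WCOC vs. C share the C pigs and are not independent. With 5 pigs per diet the intervals of the members reached about 1 log2 unit or more on at least 1 side, so a change of that size is within them.

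**Figure D2:**
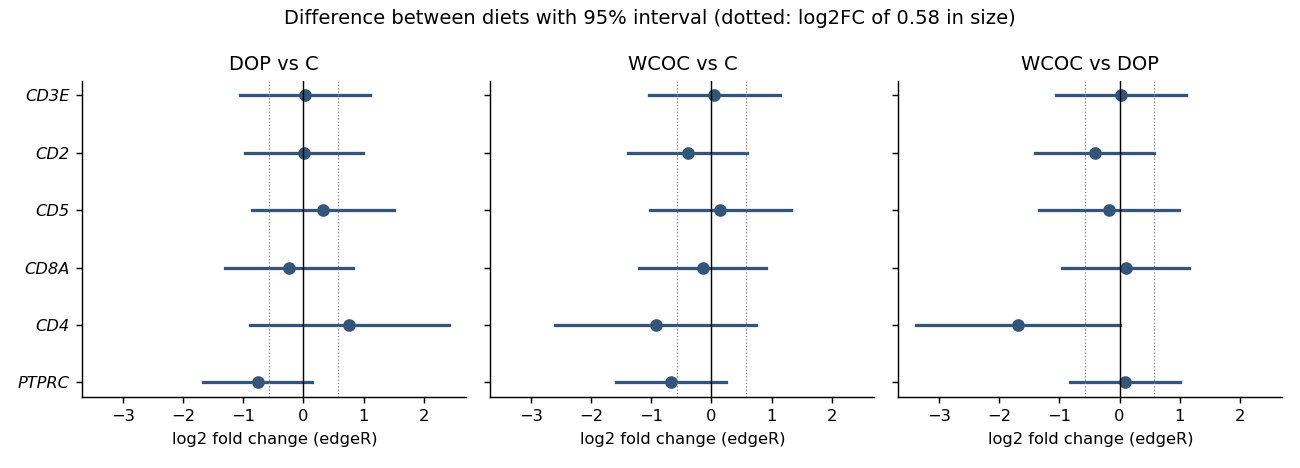
Difference between diets for the 6 tested members: log2FC of the edgeR fit (x axis, points) with its 95% interval (lines) for each gene (y axis), 1 panel per comparison, dotted lines at a log2FC of 0.58 in size. Every interval includes 0, the widest being those of CD4, whose WCOC vs. DOP interval ends at 0.002.

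From pig to pig CD3E, CD2, CD5 and CD8A rose and fell together. After subtraction of the diet means, Spearman's rho over the 15 libraries was 0.971 for CD3E with CD5, 0.900 for CD3E with CD2, 0.871 for CD3E with CD8A and 0.907 for CD5 with CD8A. These values are descriptions, since all points share the library, its depth and its scaling. The median rho of CD3E with all tested genes was −0.02. PTPRC ran with CD3E at 0.832 and with CD8A at 0.611, and CD79B with MS4A1 at 0.693.

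CD4 was the exception, with rho between 0.114 (MS4A1) and 0.371 (CD8A) towards the other 7 members. The genes most like CD4 among 11132 candidates were PON3 (a paraoxonase, 0.854), ITFG1 (0.846) and ADGRG2 (an adhesion G protein-coupled receptor, 0.832). For CD3E they were CD5, SKAP1 (an adaptor of T cell adhesion, 0.957) and IL2RB (a chain of the IL-2 receptor, 0.954). For CD2 they were RASGRP1 (an activator of Ras in lymphocytes, 0.932), CD5 (0.929) and LCK (the kinase that starts T cell receptor signalling, 0.925), and for CD5 they were CD3E, CD6 (a relative of CD5, 0.961) and SKAP1 (0.954). CD8A was most like KLRK1 (the receptor NKG2D, 0.979), GNLY (granulysin, 0.950) and NLRC3 (0.943), and PTPRC most like LCP2 (the adaptor SLP-76, 0.964), DAPP1 (0.957) and PIK3CD (a leukocyte PI3-kinase subunit, 0.954).

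**Figure D3:**
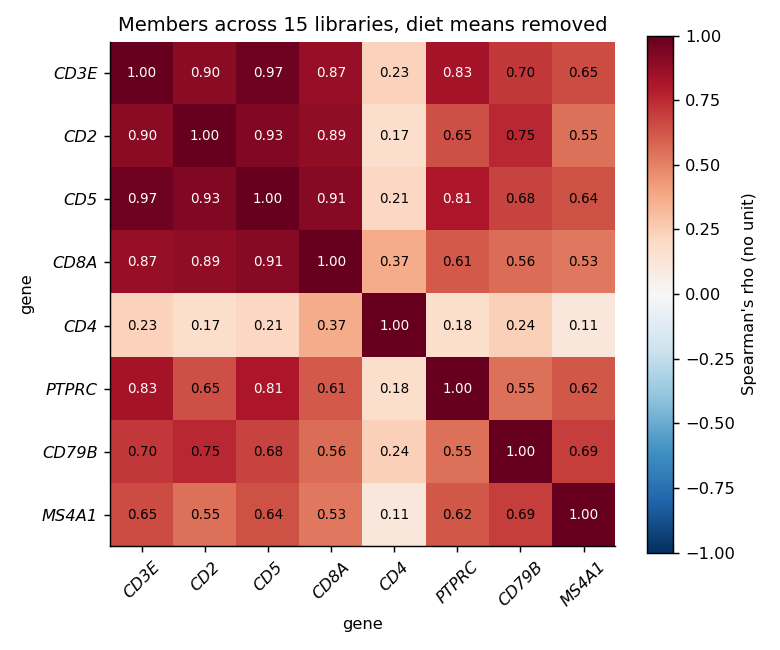
Spearman's rho (colour and number) between each pair of the 8 matched members (both axes) over 15 libraries after subtraction of the diet means. CD3E, CD2, CD5 and CD8A form a block between 0.87 and 0.97, and the row of CD4 stays between 0.11 and 0.37.

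Other genes of the T cell receptor pathway were called no more often than the members against C. Of the 12 tested genes of the list of receptor chains and proximal signalling, 0 were called for DOP vs. C and 0 for WCOC vs. C (edgeR), with 1 and 0 at an unadjusted p under 0.05, and DESeq2 called 0 in both. The list's median log2FC was 0.06 and −0.18. FYN, a kinase made by many cell types and the most abundant of the list, had log2FC −0.06, SE 0.10, edgeR adjusted p = 0.826 and, for WCOC vs. C, log2FC 0.06, SE 0.10, edgeR adjusted p = 0.769. In WCOC vs. DOP 1 of 12 was lower, where 5.11% of all tested genes were called lower. This was PRKCQ, a kinase known from T cells and from skeletal muscle (log2FC −3.36, SE 0.88, edgeR adjusted p = 0.0264). PRKCQ was highest in DOP pigs 5, 2 and 4 (22.7, 11.96 and 4.13 CPM), the 3 libraries with most skeletal muscle RNA, and whether muscle accounts for it was not tested. Its call was lost without DOP pig 2, DOP pig 5, WCOC pig 1 or WCOC pig 4.

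CD3D, a CD3 chain named after its values were seen, had a log2FC of 0.07 for DOP vs. C and 0.06 for WCOC vs. C, close to CD3E. Of 9 other T cell surface receptors 0 were called in each comparison by edgeR, with 1, 2 and 0 at an unadjusted p under 0.05 in DOP vs. C, in WCOC vs. C and in WCOC vs. DOP. DESeq2 called 1, 2 and 0 of them. IL2RA, a chain of the IL-2 receptor and the most abundant, had a log2FC of −0.01 for DOP vs. C (edgeR adjusted p = 0.988). Of 9 T cell transcription factors 0 were called in each comparison by edgeR and by DESeq2, with 1 in each at an unadjusted p under 0.05. GATA3, the most abundant, had a log2FC of 0.20 and 0.47 against C.

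Of 9 NK and cytotoxic lymphocyte genes, 0 were called for DOP vs. C (edgeR, 1 at an unadjusted p under 0.05, DESeq2 1) and 1 was lower for WCOC vs. C, where 3.93% of all tested genes were called lower. This was NKG7, a cytotoxic granule protein, which stood at 6.47, 6.75, 18.2, 8.45 and 24.5 CPM in C pigs 1 to 5, 6.31, 4.94, 2.72, 2.82 and 1.99 CPM in DOP pigs 1 to 5, and 2.75, 6.59, 2.91, 2.35 and 5.25 CPM in WCOC pigs 1 to 5. C pigs 3 and 5 were highest, and C pig 1 lay below WCOC pig 2 (log2FC −1.70, SE 0.44, edgeR adjusted p = 0.0270). C pigs 3 and 5 also had the highest macrophage and pan-leukocyte sums, and the part of those cells in NKG7 was not tested. The call was lost without C pig 3, C pig 5, WCOC pig 1, WCOC pig 3 or WCOC pig 4, and on flow cell A alone. For DOP vs. C NKG7 was not called but had a log2FC of similar size (−1.78, SE 0.44, edgeR adjusted p = 0.0679). All DOP pigs lay below all C pigs. The median of the list was −0.07 for DOP vs. C and −0.03 for WCOC vs. C, and in WCOC vs. DOP 0 of 9 were called (1 at an unadjusted p under 0.05, DESeq2 0).

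Of 14 other B cell genes, 0 were called for DOP vs. C (edgeR, 6 at an unadjusted p under 0.05, DESeq2 2). For WCOC vs. C 2 were lower (6 at an unadjusted p under 0.05, DESeq2 3), where 3.93% of all tested genes were called lower. In WCOC vs. DOP 0 were called (1 at an unadjusted p under 0.05, DESeq2 0). At an unadjusted p under 0.05 there were 17.6%, 26.4% and 28.1% of all tested genes in these comparisons. BLNK, an adaptor of the B cell receptor that macrophages also make, stood at 6.03, 6.92, 16.9, 6.19 and 23.1 CPM in C pigs 1 to 5, 6.31, 9.09, 4.51, 4.28 and 3.17 CPM in DOP pigs 1 to 5, and 3.89, 5.62, 2.35, 2.38 and 4.66 CPM in WCOC pigs 1 to 5 (log2FC −1.65, SE 0.42, edgeR adjusted p = 0.0254). CD22, an inhibitory receptor of B cells, stood at 2.21, 2.05, 4.75, 3.04 and 7.49 CPM in C pigs 1 to 5, 1.57, 2.30, 1.33, 1.502 and 1.15 CPM in DOP pigs 1 to 5, and 1.11, 1.61, 1.47, 0.953 and 2.92 CPM in WCOC pigs 1 to 5 (log2FC −1.28, SE 0.38, edgeR adjusted p = 0.0453). For both genes C pigs 5 and 3 were the highest of all libraries, whereas DOP pig 2 and WCOC pig 5 were for MS4A1 and CD79B. Within DOP, pig 2 was highest for BLNK and CD22 too. Within WCOC, pig 5 was highest for CD22 and pig 2 for BLNK. C pigs 5 and 3 also had the highest macrophage and pan-leukocyte sums, and the part of those cells in BLNK and CD22 was not tested. Neither call held on flow cell A alone, BLNK was called in 10 and CD22 in 5 of the 15 fits that leave out 1 library, and without C pig 3, C pig 5, WCOC pig 1, WCOC pig 3 or WCOC pig 4 both were lost. For DOP vs. C, where neither was called, the log2FC was −1.12 for BLNK (edgeR adjusted p = 0.185) and −1.32 for CD22 (edgeR adjusted p = 0.108).

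The median log2FC of the 14 genes was −0.31 for DOP vs. C and −0.20 for WCOC vs. C, with 9 of 14 below 0 in both, and 0.10 for WCOC vs. DOP, with 6 of 14 below 0. Against C, 5 of 14 lay above 0 in each comparison. Among them for DOP vs. C were BLK, a kinase of B cells, and PAX5, a transcription factor of B cells. Both were chosen after their values were seen, and neither was called. BLK had a log2FC of 1.72 (edgeR adjusted p = 0.344). PAX5 averaged 1.26 CPM in DOP and 0.407 CPM in C (edgeR adjusted p = 0.322). It reached 4.75 CPM in DOP pig 2 and 3.10 CPM in WCOC pig 5 against 0.209 to 0.884 CPM elsewhere. MS4A1 and CD79B also had a log2FC above 0 for DOP vs. C. Of 8 plasma cell genes 0 were called against C in either diet (1 and 1 at an unadjusted p under 0.05, DESeq2 0 and 0). In WCOC vs. DOP 1 of 8 was lower, where 5.11% of all tested genes were called lower. This was DERL3, a protein of secretory cells (log2FC −1.53, SE 0.48, edgeR adjusted p = 0.0443), which was called in 4 of the 15 fits that leave out 1 library.

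Blood genes moved most with the B cell members and, more weakly, with the other members. HBB stood at 15329 CPM and ALAS2, an enzyme of haem synthesis in red cell precursors, at 399 CPM in DOP pig 2, and at 3277 and 63.5 CPM in WCOC pig 5. All other libraries had 901 to 2792 CPM of HBB and 0.726 to 17.6 CPM of ALAS2. Over the 5 tested red blood cell genes the median rho was 0.746 with MS4A1, 0.786 with CD79B, 0.600 with CD3E and 0.243 with CD4. It was 0.639 with PTPRC, 0.561 with CD5, 0.489 with CD2 and 0.371 with CD8A. The part of blood in the lymphocyte values of DOP pig 2 and WCOC pig 5 was not tested. Without both pigs the log2FC of CD3E was −0.56 for DOP vs. C (adjusted p = 0.540) and −0.44 for WCOC vs. C (adjusted p = 0.495), and 0 members were called.

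**Figure D4:**
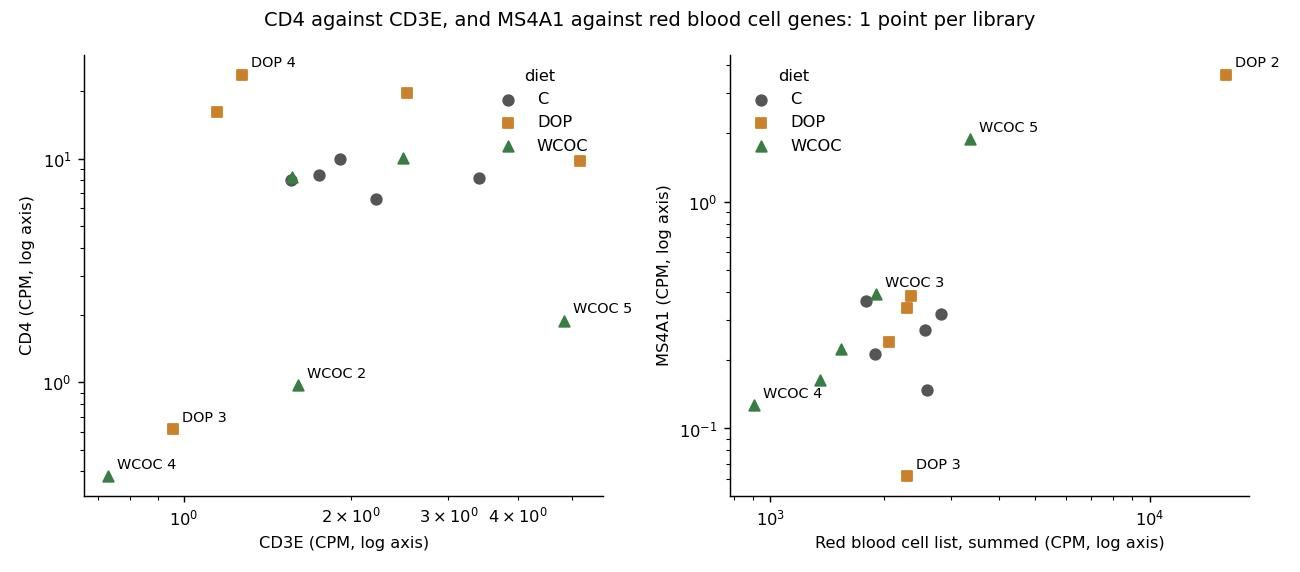
Left, CD4 against CD3E, and right, MS4A1 against the summed red blood cell list, 1 point per library, all axes in TMM-scaled CPM on a log scale, colour and shape for diet. The 4 libraries low in CD4 run from 0.731 to 4.84 CPM of CD3E, and DOP pig 2 and WCOC pig 5 are highest on both axes of the right panel.

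Of the genes shared by most leukocytes some were lower in the olive diets than in C. Of 16 other pan-leukocyte genes 2 were lower for DOP vs. C, where 0.55% of all tested genes were called lower, and 7 for WCOC vs. C (3.93%), with medians of −0.84 and −0.85. All 16 had a log2FC below 0 in both comparisons. At an unadjusted p under 0.05 (edgeR) there were 11 and 9 of 16, against 17.6% and 26.4% of all tested genes. LCP1, an actin-bundling protein of leukocytes, stood at 31.0, 73.8, 182, 67.2 and 286 CPM in C pigs 1 to 5, 29.7, 26.3, 11.9, 13.1 and 8.47 CPM in DOP pigs 1 to 5, and 19.7, 42.8, 16.2, 18.4 and 28.1 CPM in WCOC pigs 1 to 5 (log2FC −2.84, SE 0.55, edgeR adjusted p = 0.0351 for DOP vs. C, and log2FC −2.36, SE 0.54, edgeR adjusted p = 0.0156 for WCOC vs. C). All DOP pigs lay below all C pigs, and the C pigs themselves ranged from 31.05 to 286 CPM. ITGB2, the common chain of leukocyte integrins, was lower in both (log2FC −1.91, SE 0.40, edgeR adjusted p = 0.0421, and log2FC −1.67, SE 0.39, edgeR adjusted p = 0.0175), as was CD48 for WCOC vs. C (log2FC −1.78, SE 0.51, edgeR adjusted p = 0.0384). The DOP calls of LCP1 and ITGB2 were lost without C pig 3 or C pig 5, among others, and without WCOC pig 1 the WCOC count was 1 of 16, as on flow cell A alone. DESeq2 called 7 and 8 of 16, limma-voom 0 and 4, and edgeR with the replicate block 0 and 0, and in WCOC vs. DOP 0 of 16 were called (0 at an unadjusted p under 0.05, DESeq2 0).

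Of 16 macrophage and monocyte genes 1 was lower for DOP vs. C, the scavenger receptor MSR1 (log2FC −3.18, SE 0.65, edgeR adjusted p = 0.0397), and 7 for WCOC vs. C, with medians of −0.87 and −1.21. Among all tested genes 0.55% and 3.93% were called lower. The log2FC was below 0 for 15 and 16 of the 16 genes. At an unadjusted p under 0.05 (edgeR) there were 9 and 16 of 16, against 17.6% and 26.4% of all tested genes. MSR1 (log2FC −2.68, SE 0.63, edgeR adjusted p = 0.0175), TREM2, a lipid receptor (log2FC −2.40, SE 0.61, edgeR adjusted p = 0.0237), and CD68, a lysosomal protein (log2FC −2.11, SE 0.47, edgeR adjusted p = 0.0141), fell most for WCOC vs. C. Without WCOC pig 1 the count of calls for WCOC vs. C was 1 of 16, on flow cell A alone also 1, and DESeq2 called 14 (7 for DOP vs. C), limma-voom 8 (0 for DOP vs. C) and edgeR with the replicate block 0 (0 for DOP vs. C). The call of MSR1 for DOP vs. C was lost without C pig 3, C pig 4 or C pig 5, among others. In WCOC vs. DOP 1 of 16 was lower, where 5.11% of all tested genes were called lower. This was the haemoglobin receptor CD163 (log2FC −1.30, SE 0.33, edgeR adjusted p = 0.0229), a call lost without DOP pig 2, WCOC pig 1, WCOC pig 3 or WCOC pig 4.

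PTPRC lay between these lists and the T cell genes, with −0.76 and −0.67 against C. Its median rho was 0.821 with the 16 pan-leukocyte genes, 0.539 with the 16 macrophage genes and 0.729 with the 12 T cell receptor signalling genes. For CD3E the medians were 0.700, 0.432 and 0.873, and for CD4 0.09, −0.18 and 0.20. Among all lists CD4 had its highest median with the 8 endothelial genes (0.357, all 8 above 0). Which cells held the CD4 RNA was not tested. The difference between the T cell genes and the pan-leukocyte or macrophage genes was not tested.

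**Figure D5:**
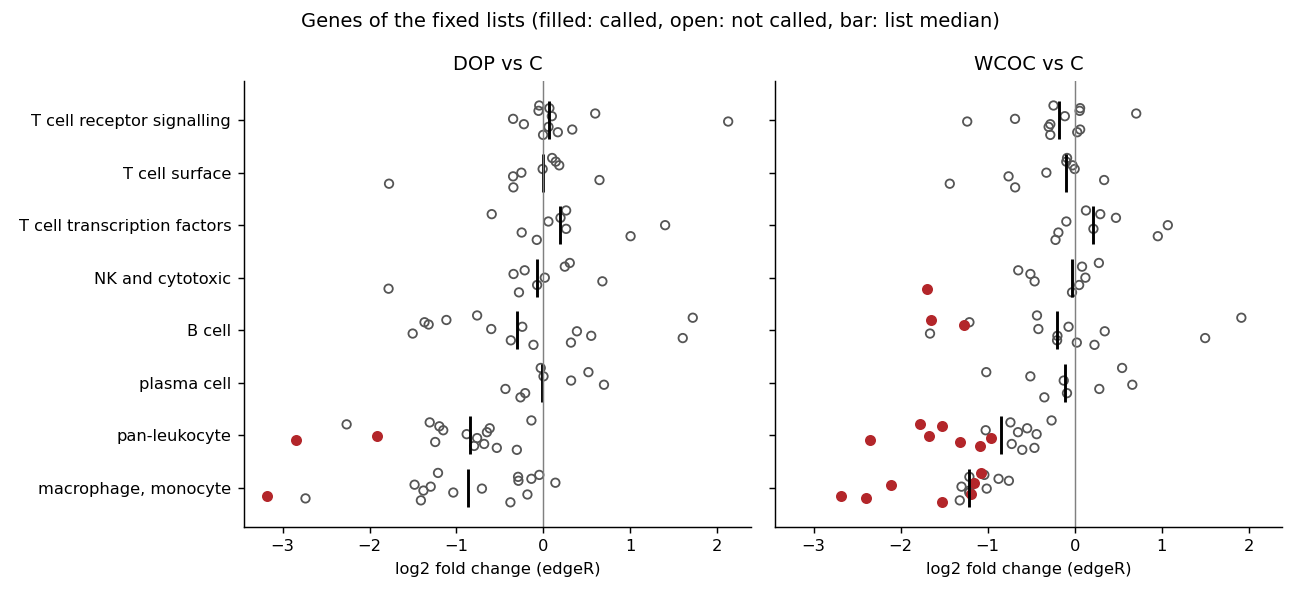
log2FC (x axis) of each tested gene of 8 lists (y axis) for DOP vs. C and WCOC vs. C, filled points for called genes and bars for list medians. The T cell lists centre near 0 with 0 calls in both panels, and the pan-leukocyte and macrophage lists lie mostly below 0, with 2 and 1 calls for DOP vs. C and 7 and 7 for WCOC vs. C.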

How the data were processed

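Backfat RNA of 5 pigs per diet was read as 1 library per pig (HiSeq, paired reads). Alignment to Sscrofa11.1 by HISAT2 and counting by HTSeq on Ensembl genes were done by the authors, who deposited raw counts per gene and pig without normalization. The 5 summary lines per file (23.4% to 32.8% of read pairs, not counted on genes) stayed out of library sizes and tests. Per the study's methods HISAT2 was run with its option for strand-specific libraries. Neither the strand setting of HTSeq nor the release of the annotation is given in the sources used here.

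Counts were fitted in R 4.3.3 with edgeR 4.0.16 (filterByExpr, TMM, quasi-likelihood, 1 mean per diet, all 15 libraries, common dispersion 0.0814), two-sided, with Benjamini-Hochberg adjustment over 14918 genes. CPM, ratios (counts plus 0.5) and Spearman's rho (log2 CPM, prior count 1) were computed here and carry no test. Nothing in the sources pairs pigs across diets, and p-values measure the spread between these pigs. Replicates of a diet differed beyond sampling noise in all 30 pairs.

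The members and the lists (written from general knowledge) were chosen with earlier results of these data known. Named genes are all members and, in each list, up to 3 called genes with the largest log2FC per comparison or, with none called, the most abundant member. For each tested member they are the 3 genes with the highest rho among genes with a symbol and at least 1 CPM. Not every gene that this rule gives is named. CD3D, CD79A, BLK, PAX5 and ALAS2 are named outside it. IDs were matched to symbols by a reference table (175 of 208 list symbols). Alternatives were DESeq2 1.42.0, limma-voom (limma 3.58.1), other scalings and filters, robust fits, only the diets compared, flow cell, the replicate block and leaving out libraries. Scripts were tested on simulated data. Plots used Python 3.11.15 and matplotlib 3.10.9. Positions are RefSeq Sscrofa11.1.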

Additional observations from a re-analysis of the deposited data

Results flagged for a closer look

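In 4 of the 24 groups of 5 libraries (8 members in 3 diets) 1 library lay far from the others by Dixon's test (critical value 0.71). For normal values chance does this in about 1 group in 20. The groups share libraries and hold genes that run together, and normality was not checked. The 4 flags therefore cannot be set against that rate. MS4A1 stood at 3.62 CPM in DOP pig 2 and at 1.89 CPM in WCOC pig 5, and CD79B at 2.23 CPM in DOP pig 2. These are the pigs with the most HBB. PTPRC stood at 60.7 CPM in C pig 5, which also had the highest macrophage sum (900.2 CPM). CD4 had no such library in any diet.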

How the results depend on the processing

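The count of called members was 0 in every comparison under all alternatives, leaving out libraries included (lowest and highest 0). Of 492 log2FC values of members under other settings 58 changed sign, none of them called, and no level moved beyond 1 SD under another scaling. The count over all genes did move. For DOP vs. C it was 114, but 496 with DESeq2, 19 with limma-voom, 2 with only the diets compared, 0 without DOP pig 2 and WCOC pig 5, and 0 to 200 without 1 library (0 without C pig 3, C pig 5, DOP pig 2 or DOP pig 4). For WCOC vs. C it was 933, but 486 on flow cell A alone, 1493 without the log2FC threshold and 468 to 1163 without 1 library (468 without WCOC pig 1). For WCOC vs. DOP it was 1158, but 1 with flow cell as covariate, 1842 without the log2FC threshold, 444 without DOP pig 2 and WCOC pig 5, and 639 to 1291 without 1 library (639 without WCOC pig 1). The causes were not tested.

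Pigs with the same replicate number share only the number: the correlation of their deviations was over 0.1 in 3 of 15 pairs (−0.50 to 0.34). With the replicate block 0, 473 and 561 genes were called, and CD3E had a log2FC of −0.0655 for DOP vs. C, −0.0663 for WCOC vs. C and −0.000781 for WCOC vs. DOP, and CD2 −0.0949 for DOP vs. C.

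With limma-voom the sign turned for CD3E (−0.26), CD2 (−0.17), CD5 (−0.0497) and CD4 (−0.0283) in DOP vs. C, CD3E (−0.16) in WCOC vs. C and CD5 (0.0740) in WCOC vs. DOP. With flow cell as covariate it turned for CD3E (−0.63), CD2 (−0.73) and CD5 (−0.38) in DOP vs. C, CD8A (0.0549) in WCOC vs. C, and CD2 (0.60) and CD5 (0.78) in WCOC vs. DOP, and on flow cell A alone for CD8A (0.0455) in WCOC vs. C. Without DOP pig 2 and WCOC pig 5, an alternative chosen after seeing the data, it turned for CD3E (−0.56), CD2 (−0.53) and CD5 (−0.35) in DOP vs. C, CD3E (−0.44) and CD5 (−0.20) in WCOC vs. C and CD5 (0.15) in WCOC vs. DOP.

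Without 1 library the log2FC for DOP vs. C ran from −0.57 to 0.25 (CD3E), −0.53 to 0.28 (CD2) and −0.36 to 0.58 (CD5), each lowest without DOP pig 2. For WCOC vs. C it ran from −0.44 to 0.28 (CD3E), −0.20 to 0.40 (CD5) and −0.39 to 0.0760 (CD8A). For WCOC vs. DOP it ran from −0.47 to 0.61 (CD3E), −0.70 to 0.13 (CD2), −0.52 to 0.50 (CD5), −0.15 to 0.49 (CD8A) and −0.23 to 0.52 (PTPRC).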

Other observations

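Of 11 genes of lymphocyte homing and lymphoid chemokines, 0 were called in any comparison by edgeR, with 1, 4 and 2 at an unadjusted p under 0.05 in DOP vs. C, in WCOC vs. C and in WCOC vs. DOP, and DESeq2 called 0, 1 and 1. The median log2FC was 0.04, −0.26 and −0.37. CXCL12, a stromal chemokine and the most abundant of the list (502 CPM), had a log2FC of 0.04 for DOP vs. C and −0.12 for WCOC vs. C.

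Among 6 dendritic cell genes 1 was lower for WCOC vs. C, XCR1, the chemokine receptor of cross-presenting dendritic cells (log2FC −1.83, SE 0.47, edgeR adjusted p = 0.0249), and the call was lost without C pig 3, C pig 5, WCOC pig 1, WCOC pig 3 or WCOC pig 4. Of 5 neutrophil genes 0 were called by edgeR (2, 1 and 1 at an unadjusted p under 0.05) and 1 by DESeq2, in WCOC vs. C. Of 8 endothelial genes 2 were higher for WCOC vs. C, ERG and CLDN5, both called in all 15 fits that leave out 1 library and on flow cell A alone. All 8 had a log2FC above 0 in that comparison. Of 11 adipocyte genes 1 was higher for WCOC vs. C, ADIPOQ, called in 11 of the 15 fits but not on flow cell A alone. For WCOC vs. DOP 2 were higher, PLIN4 and LEP, called in 10 and 15 of the 15 fits. Among all tested genes 2.33% were called higher and 3.93% lower for WCOC vs. C, and 2.65% and 5.11% for WCOC vs. DOP. Of 9 skeletal muscle genes 6 were lower for WCOC vs. DOP in edgeR, a count of 0 to 9 when 1 library was left out (0 without DOP pig 5, WCOC pig 1, WCOC pig 2, WCOC pig 3 or WCOC pig 5), and of 9 with DESeq2 but 0 with limma-voom, the replicate block or flow cell as covariate. Of 5 red blood cell genes 0 were called (4, 0 and 1 at an unadjusted p under 0.05, DESeq2 0), with a median log2FC of 3.19 for DOP vs. C, which includes DOP pig 2.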
